A study of Rattus norvegicus with 6 samples.

Results

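The 26 Hox cluster genes were examined here in cortical neural progenitors of the rat. They were taken as every gene name that starts with Hoxa, Hoxb, Hoxc or Hoxd followed by a digit, and they are 26 of the 17337 gene names listed in the expression tables. The 5 Hoxa names were Hoxa2, Hoxa6, Hoxa9, Hoxa11 and Hoxa13. The 7 Hoxb names were Hoxb3, Hoxb4, Hoxb5, Hoxb7, Hoxb8, Hoxb9 and Hoxb13, and the 7 Hoxc names were Hoxc4, Hoxc5 and Hoxc8 to Hoxc12. The 7 Hoxd names were Hoxd1, Hoxd3, Hoxd4, Hoxd9, Hoxd10, Hoxd12 and Hoxd13. RefSeq lists 39 Hox genes for the rat, and the 13 without a row in the tables were not analysed here.

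The cells came from cortices of Sprague Dawley embryos at embryonic day 14, were left untreated, were grown with the growth factors bFGF and EGF, and were collected after the second passage. The 2 biological replicates are called A and B, and polyA RNA of each was sequenced in 2 technical libraries (A1 and A2, B1 and B2). All 4 libraries belong to 1 condition, so the study holds no treatment contrast for these genes. The number of embryos behind each replicate is not given in the sources used here, and the 2 Start-seq samples of the same cells (sequencing of short capped RNA that marks transcription start sites) were not analysed here.

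Hox genes encode homeodomain transcription factors that lie in 4 clusters, and the order of genes along a cluster matches the order of the body regions in which they act. Genes with low paralogue numbers act in the hindbrain and neck, those with middle numbers in the trunk, and those with high numbers in the lumbar region, tail and distal limb. The forebrain, from which cortical progenitors derive, lies in front of the Hox expression domains, and in cells that do not use them the clusters are kept silent by Polycomb proteins.

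The 4 members that were above 0 in every library were all in the Hoxd cluster, and their promoters are shown for that reason. Promoters were taken from RefSeq on the GRCr8 build, as 250 bases before and 50 bases after the start of the gene, 5′ to 3′ on the strand of the gene, with each CG dinucleotide in capitals. All 4 lie on the plus strand of chromosome 3. The Hoxd1 promoter is at chr3:80072791-80073090, the Hoxd3 promoter at chr3:80045876-80046175, the Hoxd4 promoter at chr3:80021636-80021935 and the Hoxd9 promoter at chr3:80007756-80008055.
Hoxd1: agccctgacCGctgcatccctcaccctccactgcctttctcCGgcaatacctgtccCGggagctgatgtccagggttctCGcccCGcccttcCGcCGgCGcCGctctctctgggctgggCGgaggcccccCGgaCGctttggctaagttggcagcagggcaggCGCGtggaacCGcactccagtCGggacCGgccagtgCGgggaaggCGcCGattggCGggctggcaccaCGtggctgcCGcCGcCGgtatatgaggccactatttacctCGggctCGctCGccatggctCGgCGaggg
Hoxd3: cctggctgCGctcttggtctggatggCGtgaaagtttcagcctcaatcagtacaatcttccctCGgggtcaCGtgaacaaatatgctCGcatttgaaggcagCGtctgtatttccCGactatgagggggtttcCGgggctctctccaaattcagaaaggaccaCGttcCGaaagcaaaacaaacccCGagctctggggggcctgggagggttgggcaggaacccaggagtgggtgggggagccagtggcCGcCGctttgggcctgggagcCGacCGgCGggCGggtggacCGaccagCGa
Hoxd4: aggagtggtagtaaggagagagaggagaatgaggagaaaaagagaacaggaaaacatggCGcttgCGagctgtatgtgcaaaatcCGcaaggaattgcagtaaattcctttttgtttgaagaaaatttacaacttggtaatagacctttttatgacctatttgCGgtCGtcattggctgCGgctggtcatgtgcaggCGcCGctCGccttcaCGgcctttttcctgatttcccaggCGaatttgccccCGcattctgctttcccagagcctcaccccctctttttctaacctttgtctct
Hoxd9: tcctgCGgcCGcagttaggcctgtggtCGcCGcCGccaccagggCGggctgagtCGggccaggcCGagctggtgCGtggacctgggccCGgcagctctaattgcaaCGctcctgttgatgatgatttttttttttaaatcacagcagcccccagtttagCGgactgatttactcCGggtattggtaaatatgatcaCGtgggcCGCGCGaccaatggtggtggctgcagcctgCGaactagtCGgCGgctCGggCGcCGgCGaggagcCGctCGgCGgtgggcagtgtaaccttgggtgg

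The Hoxd1 promoter held 30 CG dinucleotides, Hoxd9 27, Hoxd3 19 and Hoxd4 12, and the median over 33469 RefSeq promoters of the same length was 7. CG-rich start regions are the kind of sequence to which Polycomb complexes are known to be recruited. Members listed at 0 had CG-rich promoters too. Of the 26 members, 13 had a promoter in the table, their CG number ran from 6 (Hoxc4) to 42 (Hoxa13) with a median of 21, and 12 of the 13 were at or above the median of all promoters. Hoxa13, Hoxa6 with 30 and Hoxd12 with 16 were listed at 0 FPKM in all 4 libraries. The 13 promoters were also searched on both strands for 3 motifs, the TATA box (TATAAA, in 14.2% of all promoters), a Pbx-Hox site (TGATTNAT, in 3.18%) and a nuclear receptor half-site (AGGTCA, in 16.2%). AGGTCA was found on the opposite strand of Hoxd4 (position -98 from the start), of Hoxd10 (-58) and of Hoxc4 (-43), which was listed at 0 in all libraries. TATAAA was found in Hoxa9 (-157) and in Hoxd13 (-202, and -204 on the opposite strand), and TGATTNAT in Hoxa2 (-114, opposite strand). The other 7 windows, with those of Hoxd1, Hoxd3 and Hoxd9 among them, held none of these letters. Retinoic acid receptors bind repeats of such half-sites, and a match of letters is not a measured site.

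The level of every Hox gene was below 1 FPKM (fragments scaled for transcript length and library size) in every library. Of the 26 members, 13 were above 0 in at least 1 library, compared with 86.7% of all gene names, and without library A2 there were 6. In every library, 4 of 26 were above 0, compared with 74.5% of all names. No member reached a mean of 1 FPKM over the replicates, a level reached by 60.5% of all names. The median of the means was 0.000942 FPKM over the 26 members and 3.83 FPKM over all names. The highest single Hox value was 0.405 FPKM, for Hoxd9 in library B2. Summed over the 26 members, A1 had 0.262 FPKM, A2 0.596, B1 1.24 and B2 1.16, so that replicate B lay above replicate A.

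A level of 0 in these tables is a listing and not a measured absence. The forebrain gene Otx2 was listed at 0 in B2 and at 16.8 to 23.7 FPKM in the other libraries, and in all 9 names were at 0 in B2 while at 5 FPKM or more in each other library. In A1, A2 and B1 there was no such name. Depth was compared through the coverage, the average depth of reads along a gene, that equals 1 FPKM. A1 stood at 24.3, A2 at 22.7 and B1 at 24.4, while B2 at 6.83 had 28.1% of the depth of B1. Total read numbers were not used, and no counting interval could be given for a single gene.

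**Figure D1:**
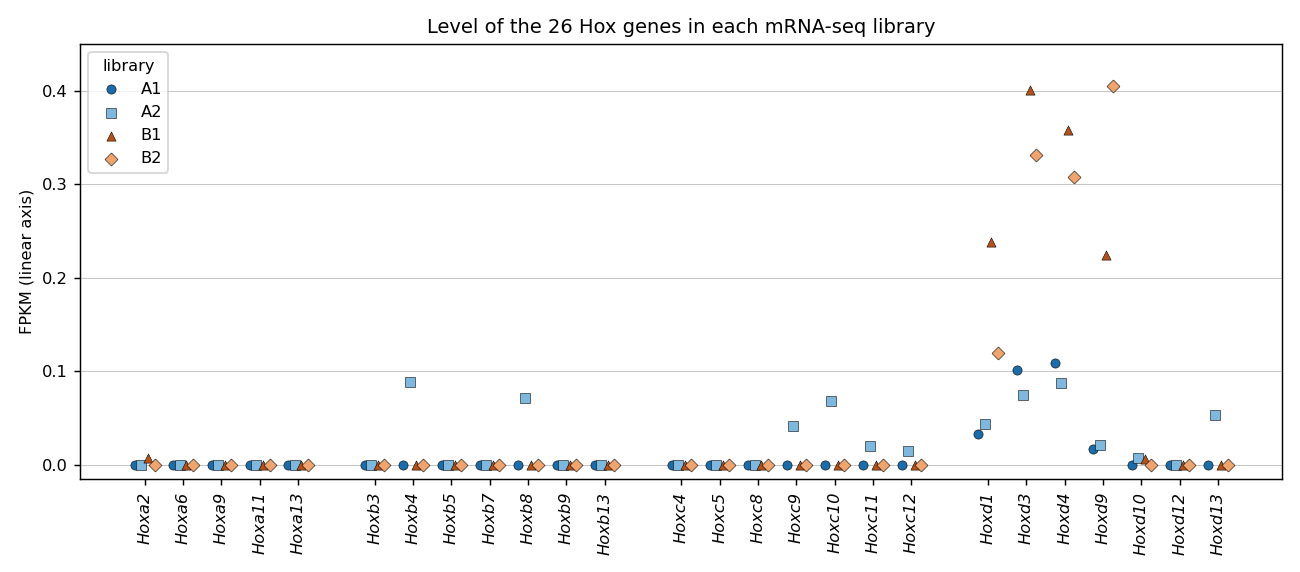
Level of each of the 26 Hox genes, grouped by cluster, as FPKM on a linear axis with 1 point for each of the 4 mRNA-seq libraries. Hoxd1, Hoxd3, Hoxd4 and Hoxd9 are above 0 in all 4 libraries with B1 and B2 above A1 and A2, and 7 genes are above 0 in A2 only.

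By cluster, Hoxd genes carried nearly all of the signal in every library but A2. The summed Hoxd level was 0.736 ± 0.651 FPKM (SD, n = 2), which was 90.4% of the sum over all Hox genes. This share was 100% in A1 and B2, 99.4% in B1 and 48.6% in A2, where Hoxb and Hoxc genes made the rest. The Hoxb sum was 0.0401 ± 0.0567 FPKM, the Hoxc sum 0.0365 ± 0.0516 FPKM and the Hoxa sum 0.00188 ± 0.00266 FPKM (SD, n = 2 each). The SD of the Hoxa, Hoxb and Hoxc sums was larger than the mean. This follows from n = 2, because each of the 3 sums was 0 in 1 replicate. Whether those 3 sums differ from each other cannot be decided from these values. The Hoxb and Hoxc sums came from library A2 alone. The Hoxd sum was above the Hoxa, Hoxb and Hoxc sums in all 4 libraries, with 0.262 and 0.290 in A1 and A2, and 1.23 and 1.16 in B1 and B2. The Hoxa sum is uncertain, because most listed Hoxa names have several rows, as described below.

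By paralogue number, the 7 genes numbered 1 to 4 summed to 0.576 ± 0.432 FPKM (SD, n = 2), or 70.7% of the Hox signal, with shares of 93.5 and 49.7% in A1 and A2, and 81.3 and 65.2% in B1 and B2. The 13 genes numbered 9 to 13 summed to 0.220 ± 0.138 FPKM and 27.1% of the signal, with shares of 6.47 and 38.3% in A1 and A2, and 18.7 and 34.8% in B1 and B2. Hoxd9 made up nearly all of it except in A2, where it had 0.0213 of 0.228 FPKM. The 6 genes numbered 5 to 8 gave 0.0180 ± 0.0254 FPKM, and Hoxb8 in A2 was the one value above 0 among them. Within the Hoxd cluster, Hoxd3 and Hoxd4 were the highest genes in A1, A2 and B1, and Hoxd9 was high in replicate B only. Hoxd13 exceeded Hoxd9 and Hoxd1 in A2 and was listed at 0 in the other libraries.

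Hoxd3, which is needed for the shape of the first neck vertebrae, had the highest mean of all members. Its level was 0.102 and 0.0753 FPKM in A1 and A2, and 0.401 and 0.331 in B1 and B2, with a mean of 0.227 ± 0.196 (SD, n = 2). Both B libraries were above both A libraries. In the rn6 build used by the authors it lies at chr3:61658245-61670282 on the plus strand, and 31.9% of all gene names had a lower mean.

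Hoxd4, a gene of the hindbrain and neck that retinoic acid induces, was close to Hoxd3. It had 0.110 and 0.0881 FPKM in A1 and A2, and 0.358 and 0.308 in B1 and B2, with a mean of 0.216 ± 0.166 (SD, n = 2). The groups did not overlap here either. Its row (chr3:61634005-61651066 in rn6) includes the microRNA gene Mir10b, and reads of the overlap cannot be told apart.

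Hoxd9, a gene of the trunk and proximal limb, showed the widest range. It was at 0.0169 FPKM in A1 and 0.0213 in A2, and at 0.225 in B1 and 0.405 in B2, with a mean of 0.167 ± 0.209 (SD, n = 2). The A libraries were nearly at 0 and the B libraries differed from each other by more than the whole A level. The gene lies at chr3:61620192-61622360 in rn6.

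Hoxd1, at the low-numbered end of the cluster and known from sensory neurons of the mouse, was the lowest of the 4. It was at 0.0337 and 0.0441 FPKM in A1 and A2, and 0.239 and 0.120 in B1 and B2, with a mean of 0.109 ± 0.0992 (SD, n = 2). Both B libraries were again higher, with B1 at the top. The gene lies at chr3:61685619-61687758 in rn6. The order of the 4 means, Hoxd3, Hoxd4, Hoxd9 and Hoxd1, did not exceed the spread between the replicates. Together the 4 genes made 88.3% of the Hox signal. They made 100% of it in A1 and B2, 98.9% in B1 and 38.4% in A2.

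Coverage was below 10 for the 4 genes in every library. It ran from 0.819 to 5.81 for Hoxd1, from 0.412 to 5.48 for Hoxd9, from 1.71 to 9.76 for Hoxd3 and from 2.00 to 8.73 for Hoxd4, and in B2 Hoxd9 (2.77) was above Hoxd3 (2.26) and Hoxd4 (2.10). Coverage multiplied by the length of a row gives an upper limit of the aligned bases, since introns are counted as length. For Hoxd1 this limit was 1753 bases in both A1 and B2, 2146 in A2 and 12434 in B1. For Hoxd9 the A libraries had 893 and 1050 bases, B1 had 11880 and B2 had 6006. For Hoxd3 and Hoxd4, whose rows are longer, the limits were 20589 to 117494 and 34152 to 148896 bases. The B2 values of Hoxd1 and Hoxd9 thus rested on fewer bases than those of B1, also for Hoxd9, which had the higher FPKM in B2.

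All 4 Hoxd genes were higher in replicate B than in replicate A. The ratio of the replicate means was 16.5 for Hoxd9, 4.60 for Hoxd1, 4.14 for Hoxd3 and 3.37 for Hoxd4. Without the shallow library B2 the ratios were 11.8, 6.13, 4.53 and 3.62 in the same order. The ratio was not tested, because 2 technical libraries of each replicate do not measure the spread between cultures. A ratio of at least 2 toward B without overlap was seen in 8.07% of the 12918 names above 0 in every library, and in 4 of 4 Hox genes. Among the 2459 such names with a mean below 1 FPKM, 15.6% were higher in B by this rule and 14.2% higher in A, compared with 4 of 4 and 0 of 4 Hox genes. The 4 genes are neighbours in 1 cluster and are not independent observations.

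On the scale fixed for differences between the replicates, which asks for a mean of at least 1 FPKM and a difference of at least 1 in log2(FPKM + 1), no Hox gene could be called because none reached the minimum. By that rule 4.78% of the 10481 names with a mean of at least 1 were higher in B and 1.42% were higher in A. The log2(FPKM + 1) differences of the 4 Hoxd genes were 0.18 to 0.37, since the added 1 exceeds the levels themselves.

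Marker genes of other cell types moved between the replicates as well. The mesenchyme and meninges markers, which stand for the connective tissue around the brain, were all 10 listed and all 10 higher in B, and 9 of them passed the rule for a difference. Their summed level was 665 FPKM in library A1, 648 in A2, 2534 in B1 and 3050 in library B2, with a median ratio of 4.31. Col3a1, Col1a1 and Col1a2, which encode fibrillar collagens, had the highest means of the list, and Col1a1 went from 169 and 157 FPKM in A1 and A2 to 685 and 785 in B1 and B2. The other 6 called were Dcn, Lum, Foxc1, Twist1, Pdgfra and Foxd1. The part of these cells in the Hoxd values was not tested. In bulk RNA, fewer cells of a type and less RNA per cell cannot be told apart.

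Among 5 listed neural crest markers, Tfap2a and Tfap2b were higher in B by the same rule, and Sox10, a defining marker of migrating crest, was at 0.369 and 0.373 FPKM in A1 and A2 and at 0.219 and 0.0731 in B1 and B2. Ednrb, an endothelin receptor, was also lower in B without passing the rule (93.5 and 91.0 FPKM against 53.9 and 66.8), so that 2 of the 5 were above and 2 below in B without overlap. The 9 listed forebrain markers were at 1 FPKM or more in 8 cases, with Hesx1 at 0, and 7 of 9 were lower in B without overlap. Over all names 26.3% were lower and 21% higher in B without overlap, compared with 0 and 4 of the 26 Hox genes. Otx2 was called higher in A with the 0 of B2 included in its mean, and without B2 (23.1 FPKM in A, 16.8 in B1) it was not called. All 9 listed neural progenitor markers were above 1 FPKM, and Fabp7 and Hes5, genes of radial glia and Notch signalling, were called higher in A. Of these 9, 5 were lower and 0 higher in B without overlap. Of 8 neuronal markers 4 reached 1 FPKM and 0 were called, with 4 lower and 1 higher in B without overlap. No endothelial marker (5 listed, sums of 0.670 to 2.37 FPKM) and no blood or microglia marker (9 listed, sums of 1.16 to 2.31 FPKM) reached a mean of 1 FPKM over both replicates, and Gata1 was listed at 0 throughout. At these low levels 4 of the 5 endothelial markers were higher in B without overlap and 0 were lower, with a median ratio of 2.22 (1.20 without B2), and 3 of the 9 blood or microglia markers were higher and 1 was lower, with a median ratio of 2.70 (1.62 without B2). Their part in the Hoxd values was not tested either.

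**Figure D2:**
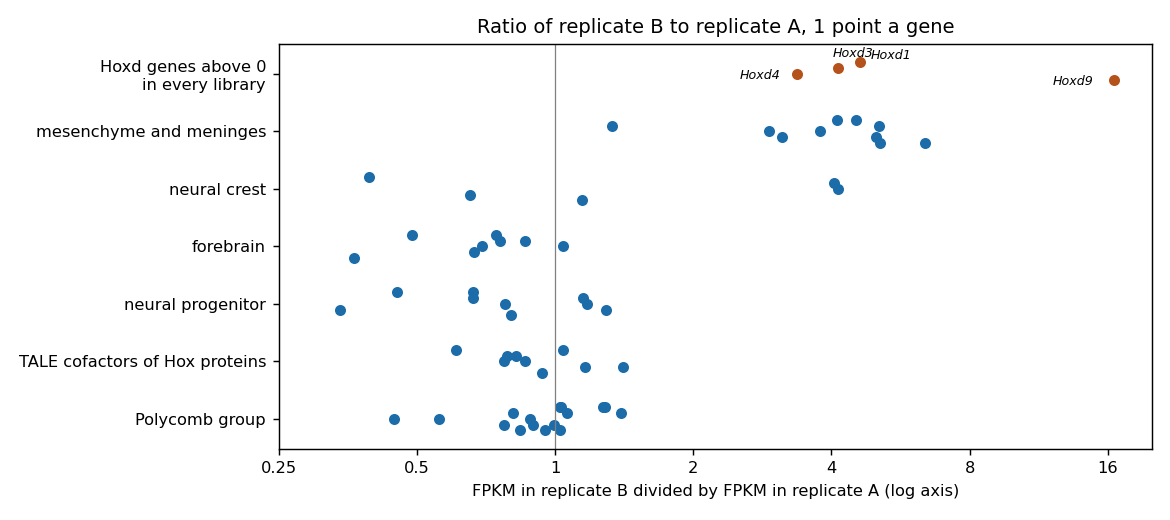
FPKM of replicate B divided by that of replicate A, on a log axis with 1 point for each gene, for the 4 Hoxd genes above 0 in every library and for 6 gene lists. The Hoxd ratios run from 3.37 to 16.5, the mesenchyme and meninges markers have a median of 4.31, and the forebrain markers a median of 0.719.

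The other members with reads were above 0 in 1 or 2 libraries. In A2 alone, 7 members were above 0, compared with 2.95% of all gene names. That share is low in part because 74.5% of all names, and only 4 of 26 Hox genes, were above 0 in every library. Over all names, 511 were above 0 in A2 only and 2306 were at 0 throughout, compared with 7 and 13 Hox genes. The 7 members were Hoxb4 (0.0885 FPKM), Hoxb8 (0.0718), Hoxc10 (0.0687), Hoxd13 (0.0538), Hoxc9 (0.0419), Hoxc11 (0.0199) and Hoxc12 (0.0155). They come from 3 clusters, and 5 of the 7 have numbers of 9 or more, as do 13 of the 26 members. Hoxb4 acts in the hindbrain and in blood stem cells, and Hoxd13 in digits. The technical partner A1 listed all 7 at 0 at a similar depth. In A1 and B2 no member, and in B1 only Hoxa2, was above 0 in that library alone. The upper limit of aligned bases in A2 ran from 562 for Hoxc12 to 8159 for Hoxc10.

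Hoxa2, which gives the second branchial arch its identity and acts furthest forward in the hindbrain, was at 0.00754 FPKM in B1 and was listed at 0 in the other libraries. At most 418 aligned bases stood behind it. Hoxd10, a gene of the lumbar spinal cord, was at 0.00714 FPKM in A2 and 0.00666 in B1 with a coverage of 0.162 in both. The 13 members listed at 0 in all libraries were Hoxa6, Hoxa9, Hoxa11, Hoxa13, Hoxb3, Hoxb5, Hoxb7, Hoxb9, Hoxb13, Hoxc4, Hoxc5, Hoxc8 and Hoxd12. Over all names, 13.3% were listed at 0 in all libraries. The Hoxa names other than Hoxa13 are listed at several places in the tables. Rows of a name were added up, so a split of reads between rows does not lower a value. Whether reads that match several places were lost was not tested, and the values of these genes are uncertain. In B1, Hoxa6, Hoxa9 and Hoxa11 had 3 rows each and Hoxa2 had 2, on chromosome 4 and on an unplaced sequence.

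Most genes next to the clusters were expressed at higher levels than those within. Of the 24 flanking gene names, 3 on each side of each cluster, 19 had a mean of at least 1 FPKM (60.5% over all names) and the highest was Atp5g2, a subunit of ATP synthase, at 656 FPKM. Of 7 other names within the clusters none reached 1 FPKM, and the highest was Mir10b at 0.00319 FPKM. Next to Hoxd, Mtx2 (a mitochondrial import protein) was at 36.2 ± 2.11 FPKM (SD, n = 2) at a distance of 68.4 kb. On the other side Lnp was at 3.42 ± 0.378 FPKM at 95.7 kb. Both exceeded every Hoxd gene between them by more than the spread between replicates.

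The other clusters had highly expressed genes on at least 1 side. Atp5g1 was at 135 ± 7.19 FPKM at 133 kb from Hoxb, with Snf8 and Ube2z beyond it at 123 and 37.2 FPKM. On the other side of Hoxb, Skap1 was above 0 only in A2 (0.00774 FPKM), and Snx11 at 433 kb had 21.6 FPKM. Next to Hoxc, Smug1 was at 1.43 ± 0.548 FPKM, Cbx5 (a heterochromatin protein) at 63.4 ± 2.69 and Hnrnpa1 at 432 ± 112 on one side, and Cistr-act at 0.0435, Calcoco1 at 67.6 and Atp5g2 on the other. Next to Hoxa, the homeobox gene Evx1 at 70.4 kb had 0.00348 FPKM and NEWGENE_2812 was listed at 0. Skap2 at 162 kb had 1.01 ± 0.0533 FPKM, Hibadh at 304 kb had 34.1 ± 2.01, and Snx10 and LOC685406 had 3.55 and 0.190. Farther from Hoxd, Atf2, Atp5g3, Hnrnpa3 and Nfe2l2 were at 5.79, 294, 197 and 16.9 FPKM. Copz2, beyond Hoxb, was higher in B, with 27.4 and 28.9 FPKM in A1 and A2 and 81.9 and 94.2 in B1 and B2.

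**Figure D3:**
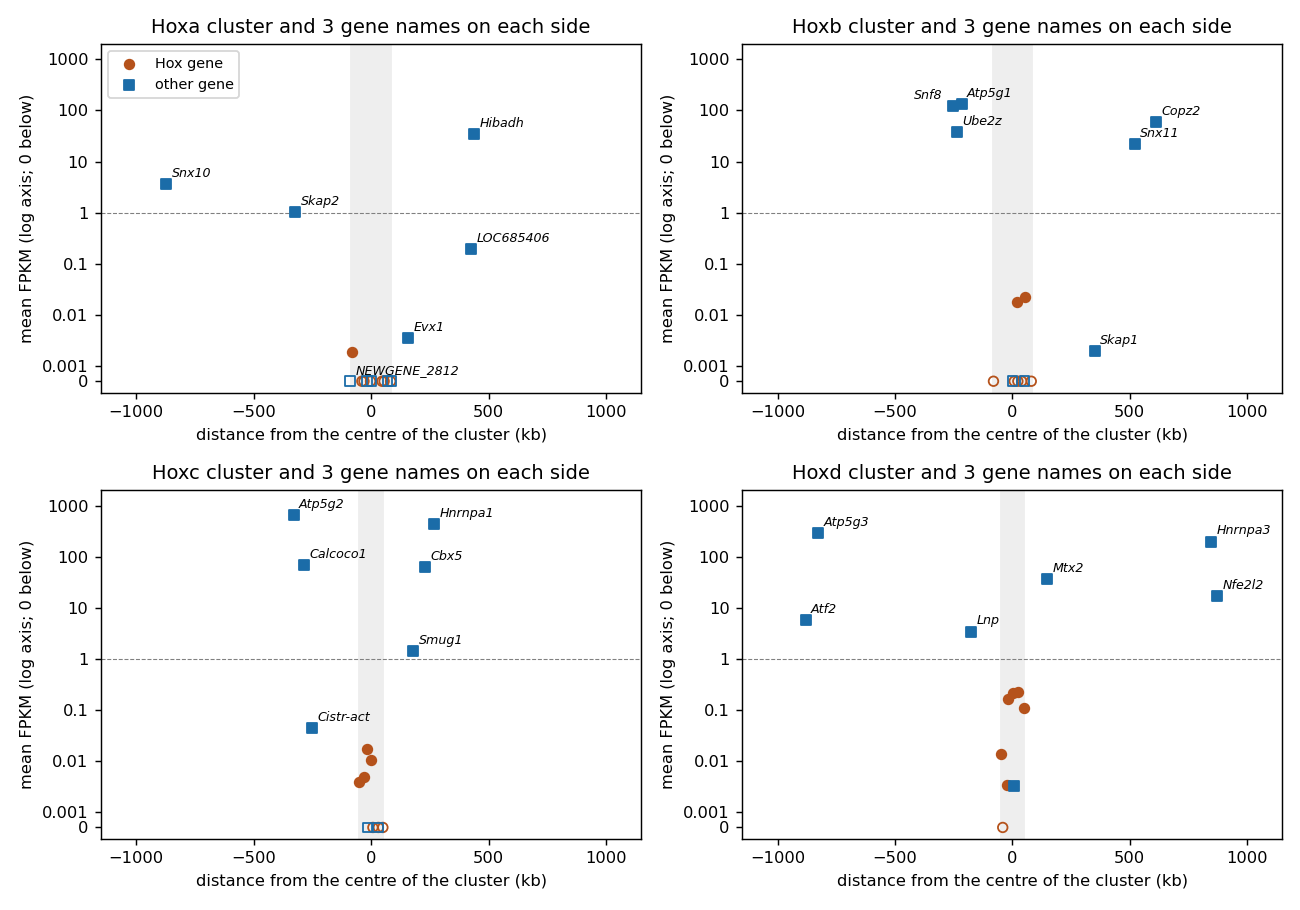
Mean FPKM on a log axis (0 drawn below it as open symbols) against the distance in kb from the centre of each Hox cluster, with Hox genes as circles, other genes as squares and the span of the cluster in grey. Every gene within the clusters is below 1 FPKM (dashed line), and 19 of the 24 flanking names are above it.

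The clusters also hold microRNA genes, and their mature sequences are shown since Mir10b was the only one above 0. MicroRNAs repress messages through the seed, bases 2 to 8 of the mature sequence, which is in capitals here. The sequences were taken from RefSeq.
rno-miR-10a-5p (Hoxb cluster): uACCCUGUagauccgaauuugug
rno-miR-10b-5p (Hoxd cluster): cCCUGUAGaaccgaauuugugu
rno-miR-196a-5p (Hoxc cluster): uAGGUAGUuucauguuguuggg
rno-miR-196b-5p (Hoxa cluster): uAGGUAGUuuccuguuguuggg
rno-miR-196c-5p (Hoxb cluster): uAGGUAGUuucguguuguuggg
rno-miR-615 (Hoxc cluster): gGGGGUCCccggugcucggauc

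The 3 miR-196 sequences share 1 seed. The listed miR-10b-5p begins 2 bases later than miR-10a-5p, and the 21 bases in common differ at 1 position (U12A, counted from the 5′ end of miR-10a-5p), so that the seeds as listed are different windows of nearly the same sequence. Mir10b was at 0.00830 FPKM in A1 and 0.00444 in A2 and was listed at 0 in both B libraries. The other 5 genes were listed at 0. At such levels no direction between the replicates can be read, since a listed 0 is not a measured absence. Libraries of polyA RNA do not measure mature microRNAs, so that these values refer to longer transcripts over the gene.

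Genes for proteins that work with Hox factors or act on their chromatin were above 1 FPKM wherever they were listed. A mean of at least 1 FPKM was reached by 60.5% of all names. All 9 TALE cofactors, the homeodomain partners with which Hox proteins bind DNA, were above 1 FPKM, with a median of 28.3. The highest were Meis2 at 80.2 ± 13.6 FPKM, Pbx2 at 43.8 ± 2.10 and Meis3 at 34.7 ± 3.70 (SD, n = 2 each). The lowest was 3.90 FPKM, above every Hox gene.

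All 16 listed Polycomb genes (of 19) were above 1 FPKM, with a median of 20.1. Rbbp4 and Rbbp7, histone-binding subunits of several chromatin complexes, were at 119 ± 2.47 and 114 ± 26.5 FPKM, and Phc2, a subunit of the Polycomb complex that binds the silencing mark, was at 86.1 ± 1.48 (SD, n = 2 each). All 7 listed genes (of 10) of the activators of Hox chromatin, subunits of the opposing methyltransferase complexes and related factors, were above 1 FPKM, with a median of 32.0. Dpy30 was at 94.9 ± 4.27 FPKM, Men1 at 59.8 ± 0.549 and Ash2l at 42.4 ± 2.24 (SD, n = 2 each). These levels are of RNA and carry no information on where the proteins sit.

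The ParaHox and Evx homeobox genes, relatives of the Hox genes outside or at the edge of the clusters, were divided. Gsx1 and Gsx2, which act in progenitors of the ventral forebrain, were at 68.1 ± 15.3 and 3.70 ± 2.19 FPKM (SD, n = 2 each). The other 4 of the 6 listed were below 1 FPKM, with Evx1 as given above, Cdx2 above 0 only in A2 (0.0110 FPKM), and Cdx4 and Pdx1, of the trunk and gut, listed at 0. The 13 listed hindbrain position genes (of 14), which mark or set the territory next to the front Hox genes, had a median of 1.08 FPKM and 7 were at 1 FPKM or more, a share near the 60.5% of all names. Among the highest were En2 at 12.4 ± 3.73 FPKM and Irx5 at 7.66 ± 3.40 (SD, n = 2 each). In these 5 lists 0 genes passed the rule for a difference between the replicates, compared with 4.78% of all tested names toward B and 1.42% toward A. Without library B2, Gsx2 and Gbx2 passed it toward A. Values of hindbrain genes that did not pass lay on both sides. Egr2, a gene of the hindbrain segments, was at 0.528 and 0.422 FPKM in A1 and A2 and at 1.07 and 2.28 in B1 and B2, and Irx3 and Irx5 had a ratio of 1.91 toward B. En2 had a ratio of 0.648 and Gbx2 of 0.40.

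**Figure D4:**
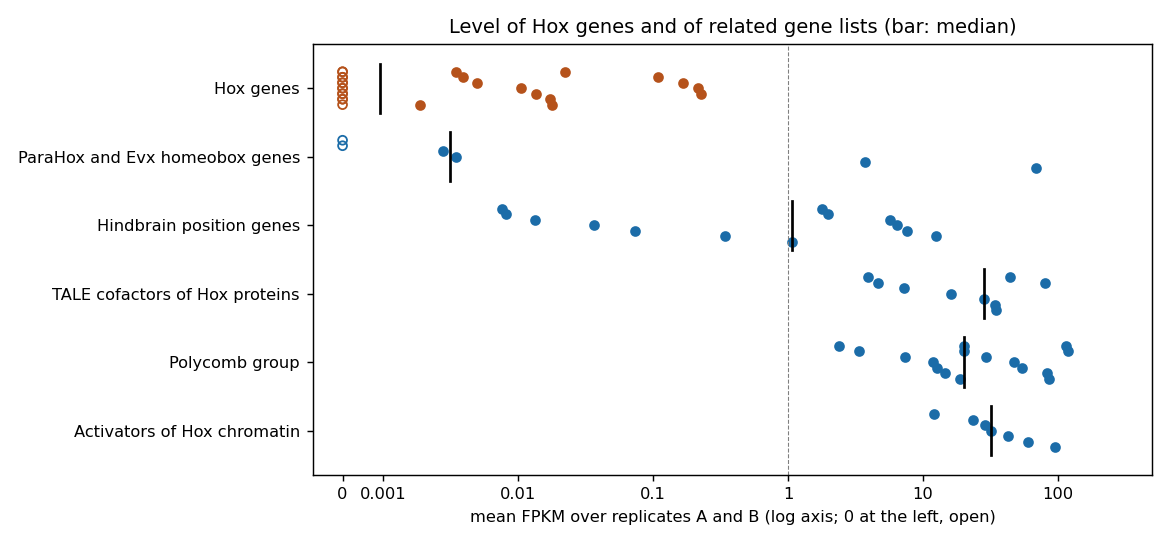
Mean FPKM over replicates A and B on a log axis, with 1 point for each gene and a bar at the median, for the 26 Hox genes and 5 related lists (0 drawn at the left as open points). All Hox genes are below 1 FPKM (dashed line), whereas all listed TALE, Polycomb and activator genes are above it.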

How the data were processed

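The deposited tables give FPKM, which the authors obtained from polyA libraries aligned to rn6. They also give TPM, scaled by the authors to the same total in every library. The deposited coverage is the average depth of reads along a gene and keeps the depth of the library. The authors' methods name STAR for the alignment, Rsubread and DESeq2 for FPKM and StringTie for assembly, and the deposited tables have the StringTie layout. The submitters' processing notes list STAR, HISAT and StringTie without a role. The sources thus differ on the tool behind FPKM, and versions are not given in the sources used here. The table of B2 carries another run code than the other 3, and its meaning is not given. Replicates A and B follow the sample labels.

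Rows with the same gene name were added up. The 2 technical libraries of a replicate were averaged first, and each mean and SD was taken over 2 biological replicates. Technical libraries are not independent cultures, and no test was made and no p-value computed. A difference between replicates was counted at a mean of at least 1 FPKM, a difference of at least 1 in log2(FPKM + 1), and no overlap of libraries. The lists were the 5 related lists and 7 sets of cell type markers. The Hox genes named with values were the highest of each cluster and those counted as differing, and beyond this rule all others above 0 were named after their values were seen, as were single list genes. For each related list, the 3 genes with the highest mean were named, together with the 3 names on each side of a cluster. Some list genes that this rule names are not reported here. The members and lists were chosen with earlier results of these data known. Alternatives were TPM, other thresholds, pseudocounts and filters, and leaving out libraries or replicates. RefSeq sequences (GRCr8) were matched by symbol and not mixed with rn6 positions. Python 3.11.15 with pandas 2.3.3, numpy 2.4.6 and matplotlib 3.10.9 was used, and the counting code was tested on simulated data.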

Additional observations from a re-analysis of the deposited data

Results flagged for a closer look

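A value was listed here when 1 of the 4 libraries lay far from the other 3 by Dixon's criterion. Chance gives about 1 such case in 20, and the technical libraries of a replicate are not independent. Of 34 quantities examined, 12 met it. In A2, Hoxb4 was at 0.0885 FPKM, Hoxb8 at 0.0718, Hoxc10 at 0.0687, Hoxd13 at 0.0538, Hoxc9 at 0.0419, Hoxc11 at 0.0199 and Hoxc12 at 0.0155, with 0 listed in each other library. The Hoxb sum of 0.160 FPKM and the Hoxc sum of 0.146 FPKM in A2 follow from these genes. In B1, Hoxa2 was at 0.00754 FPKM with 0 elsewhere, and the Hoxa sum of 0.00754 is the same value. The depth of B2 was 6.83 in units of coverage at 1 FPKM, and the other libraries had 22.7 to 24.4. Any criterion of this kind is met by a gene that is above 0 in a single library.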

How the results depend on the processing

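The number of Hox genes above 0 was 13. It was 4 when every library had to be above 0, 4 at 0.1 FPKM or more in at least 1 library, and 6 without library A2, an alternative chosen after seeing the data. Without replicate A or without replicate B it ran from 6 to 12. The median over the 26 genes (0.000942 FPKM) became 0.00154 in TPM, 0.0172 over the genes above 0 only and 0.00188 without library B2, and it was 0 without either replicate. The number of Hox genes that differed between A and B was 0 and became 4 with a ratio of at least 2 and no minimum mean, chosen after seeing the data. No Hox gene reached a mean of 1 under any alternative tried. Without replicate A the Hoxb and Hoxc sums were 0, and without library A2 as well, whereas the Hoxd sum ran from 0.276 to 1.20 FPKM over the replicates and was 0.729 without A2. Among the list genes, leaving out library B2, chosen after seeing the data, took the forebrain genes called from 2 to 0 and added 1 gene each to the ParaHox and hindbrain lists. The cause was not tested. No paired analysis was possible because no test between groups was made, and the count between A and B needs both replicates. At these depths a level of 0 does not show absence.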
